A study of Mus musculus with 7 samples.

Results

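The homeostatic lymphoid chemokines and their receptors were followed in mouse spleen after a challenge with lipopolysaccharide (LPS), a component of the bacterial outer membrane. The set holds 8 genes taken by symbol from the 17920 genes of the expression table, namely the ligands Ccl19, Ccl21a, Ccl21c, Cxcl13 and Cxcl12 and the receptors Ccr7, Cxcr5 and Cxcr4. All 8 were listed, and all 8 had a mean of at least 1 FPKM over the libraries, as did 11378 genes in all. FPKM counts fragments per length of transcript, scaled to the mapped fragments of a library, so levels can be set side by side between genes. RNA-seq libraries had been made from spleens of C57BL/6 mice aged 8 weeks, and every mouse had received LPS at 20 mg/kg into the peritoneum. The spleens were taken 90 min after LPS from 2 wild-type and 2 GdX-deficient mice, and after 6 h from 2 wild-type mice and 1 GdX-deficient mouse. The design text counts 4 wild-type and 3 GdX-deficient mice, which makes each library 1 mouse. GdX, also called UBL4A, is a small ubiquitin-like protein that helps to deliver tail-anchored proteins to membranes, and its gene Ubl4a lies on the X chromosome. The genotype is labelled GdX-/- for the samples and GdX-/Y in the series title. Which part of Ubl4a is deleted, and whether it is deleted in every tissue, is not given in the sources used here. Spleen without LPS was not analysed here, and levels before the challenge are therefore not known. The source is named splenocytes, but the protocol mashed the collected spleen and put it into Trizol, and stromal genes were measured in every library.

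As background, CCL19 and CCL21 are made by fibroblastic reticular cells of the T cell zone and draw in naive T cells and mature dendritic cells through their receptor CCR7. CXCL13 is made by stromal cells of the B cell follicle and attracts B cells through CXCR5, and its expression there depends on lymphotoxin and the non-canonical arm of NF-kB. CXCL12 is made by perivascular and red pulp stroma, and its receptor CXCR4 is carried by neutrophils, plasma cells and lymphocytes. In whole tissue, fewer cells of a type and less RNA per cell cannot be told apart.

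The mouse genome holds several near-identical copies of Ccl21, and the letters of 2 of them show why their levels cannot be fully separated. Ccl21a lies at chr4:42772860-42773991 and the copy Gm21541 at chr4:41903613-41904743 (GRCm38.p6). Their annotated transcripts are 870 bases long, differ at 6 bases and are 99.3% identical, with a longest stretch of 370 bases without a difference. The coding parts of 402 bases differ at 2 bases, T84A and C194T (base of Ccl21a, position from the first coding base, base of Gm21541), and the coding part of Ccl21b equals that of Gm21541. Coding bases 61 to 217 are shown with the differing bases in capitals, from the GENCODE M21 transcripts.
Ccl21a: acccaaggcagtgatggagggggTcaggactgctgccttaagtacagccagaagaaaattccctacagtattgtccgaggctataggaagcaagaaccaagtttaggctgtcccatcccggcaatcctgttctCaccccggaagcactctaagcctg
Gm21541: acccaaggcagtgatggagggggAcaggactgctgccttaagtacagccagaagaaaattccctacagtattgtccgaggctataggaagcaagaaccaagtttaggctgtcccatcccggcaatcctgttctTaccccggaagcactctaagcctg

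On GRCm38.p6 the other members lie at chr4:42754525-42756365 (Ccl19), chr5:95956939-95961068 (Cxcl13), chr6:117168535-117181368 (Cxcl12), chr11:99144199-99155077 (Ccr7), chr9:44511787-44526444 (Cxcr5) and chr1:128588199-128592299 (Cxcr4). Promoter letters are shown for the ligands Cxcl13 and Cxcl12, which stood on opposite sides between the times in wild-type spleen. RefSeq promoter windows on GRCm38.p6, 250 bases before to 50 bases after the start, were held for 5 of the 8 members. The 120 bases before the start are printed 5′ to 3′ on the gene's strand, with found motifs in capitals.
Cxcl13 (chr5:95956819-95956938, plus strand): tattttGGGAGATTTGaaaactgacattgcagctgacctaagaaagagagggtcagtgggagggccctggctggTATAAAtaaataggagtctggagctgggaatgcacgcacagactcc
Cxcl12 (chr6:117168415-117168534, plus strand): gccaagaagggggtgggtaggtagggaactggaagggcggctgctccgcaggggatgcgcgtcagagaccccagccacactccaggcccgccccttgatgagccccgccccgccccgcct

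In the Cxcl13 window, TATAAA begins 46 bases before the start, and the kB form known from RelB-containing NF-kB dimers begins 114 bases before it. The matches do not overlap. Both strands of each window were searched. The RelB form occurs in 0.365% of 32851 promoter windows of this length and in 1 of the 5 member windows, that of Cxcl13. TATAAA occurs in 13.6% of all windows and in 2 of the 5, those of Cxcl13 and Cxcr4. The classical kB consensus occurs in 8.46% of all windows and in 0 of the 5. These are matches of letters only.

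The libraries were of like depth, estimated at 19500000 to 21100000 mapped fragments, and globin genes took 7.73% to 30.9% of a library's FPKM sum. Ubl4a itself did not separate the genotypes at 90 min, at 4.03 and 5.69 FPKM without GdX and at 5.62 and 7.5 FPKM in wild type. At 6 h Ubl4a stood at 10.6 FPKM without GdX and at 11.9 and 14.0 FPKM in wild type. The overlapping entry Gm44504 stood at 0.66 to 1.86 FPKM in the 3 GdX-deficient and at 14.5 to 51.1 FPKM in the 4 wild-type libraries. Gm44504 was chosen after its values were seen, so it cannot check the labels. T cell markers (Cd3e, 15.2 to 38.2 FPKM) were present in every library, and so was the marginal stroma gene Madcam1 (4.44 to 20.6 FPKM). Cr2, which follicular dendritic cells and B cells both express, stood at 11.7 to 69.6 FPKM. Pdpn, a marker of reticular fibroblasts, was low at 0.15 to 2.3 FPKM. Replicate 2 of the GdX-deficient 90 min group stood apart. Its 12 neutrophil markers summed to 4950 FPKM against 822 to 2702 FPKM in the other libraries, and its 10 dendritic cell markers to 74.1 FPKM against 249 to 388 FPKM. Most of the latter gap was Fscn1, at 27.8 FPKM against 145 to 342 FPKM in the others. Ccl22 was also low (4.17 FPKM against 19.5 to 61.8 FPKM). Itgax (11.1 FPKM, where the range was 2.41 to 13.3 FPKM) and Clec9a (5.49 FPKM, the highest of all libraries) were not low.

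The order of levels takes each gene as its own entry, although Ccl19 has CCL19-like entries beside it whose sum with Ccl19 in wild type at 90 min, 340.3 FPKM, is above the mean of any single member. Among the 8 genes in wild-type spleen at 90 min, Cxcr5 had the highest RNA level at 308 ± 66.8 FPKM (SD, n = 2 for each level in this paragraph). Ccl21a followed at 224 ± 66.5 FPKM, and these 2 genes overlapped between libraries. Ccr7 came next at 149.5 ± 15.0 FPKM, apart from its neighbours on both sides. Ccl19 at 118 ± 16.2 FPKM and Cxcl12 at 115 ± 6.16 FPKM overlapped. Cxcl13 (100.4 ± 13.4 FPKM), Cxcr4 (18.4 ± 3.36 FPKM) and Ccl21c (5.44 ± 0.820 FPKM) completed the order, each apart from the gene before it, although Cxcl13 (91.0 and 109.8 FPKM) overlapped with Ccl19 (106 and 129 FPKM). In wild-type spleen at 6 h Ccr7 was highest at 272 ± 83.7 FPKM and Cxcl13 second at 142 ± 30.9 FPKM. Cxcr5 (103 ± 47.4 FPKM), Ccl21a (72.7 ± 24.2 FPKM), Ccl19 (59.9 ± 16.6 FPKM) and Cxcl12 (53.0 ± 6.60 FPKM) followed, and from Cxcl13 to Cxcl12 each gene overlapped with the next. Cxcl12 lay apart from Cxcr4 (26.7 and 25.4 FPKM) and Cxcr4 apart from Ccl21c. In GdX-deficient spleen at 90 min Cxcr5 again led with 238 ± 168 FPKM, and the first 7 members formed a chain of overlapping neighbours, with Ccl21c apart. In the 6 h GdX-deficient library Cxcl13 (169.9 FPKM), Ccr7 (155 FPKM) and Cxcr4 (146 FPKM) were the 3 highest.

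**Figure D1:**
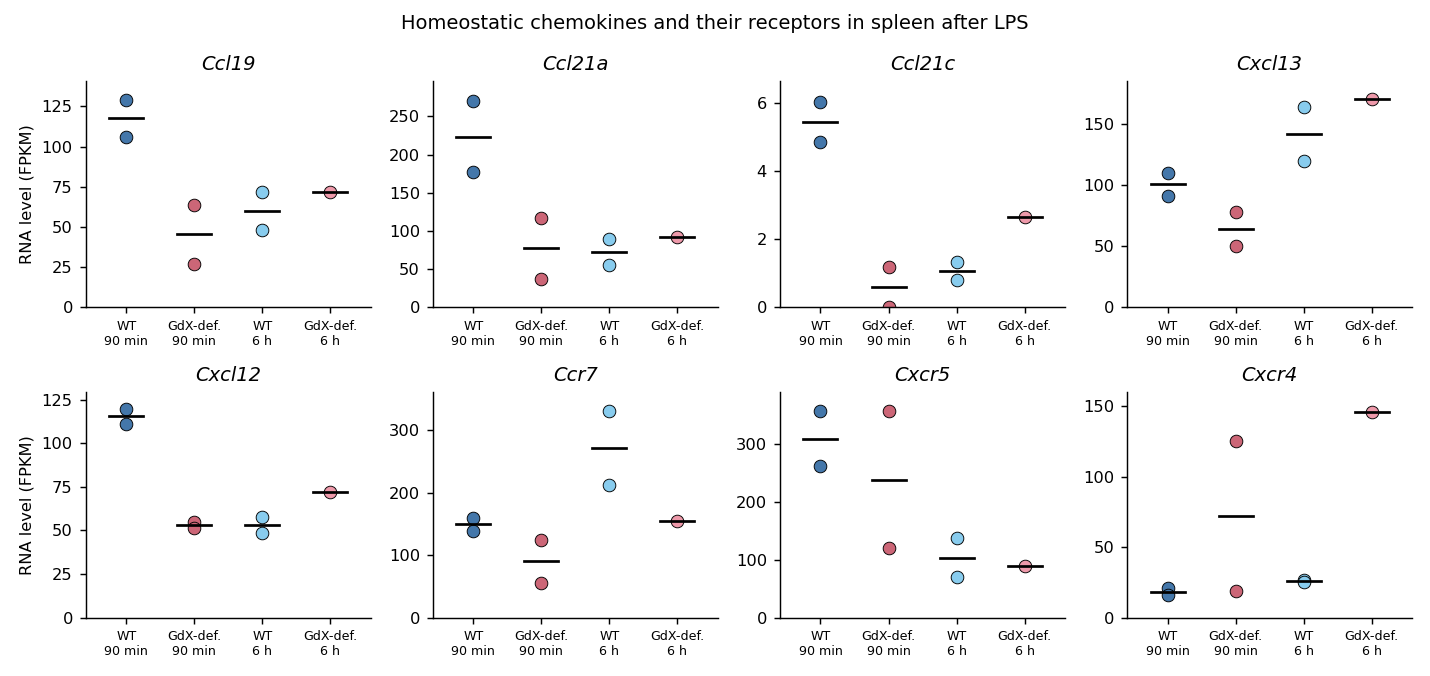
RNA level in FPKM of each of the 8 genes (1 panel each, linear axes from 0) by genotype and time after LPS, where a point is 1 library and a bar the mean of the group. Wild type at 90 min stands above the other groups for Ccl19, Ccl21a, Ccl21c and Cxcl12, and Cxcr4 is high in 2 of the 3 GdX-deficient libraries, at 126 and 146 FPKM.

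The first comparison asked how the loss of GdX altered RNA levels 90 min after LPS, the time with 2 mice of each genotype. Of the 8 genes, 7 had a lower mean log2 level in GdX-deficient spleen and 1, Cxcr4, a higher one, where 43.5% of all tested genes were lower. For 6 of the 8, both GdX-deficient libraries lay below both wild-type ones, as they did for 23.4% of tested genes. None of the 8 passed the threshold of an adjusted p of 0.05 in limma, against 0.0176% of the tested genes (2 genes), and 5 of the 8 had an unadjusted p under 0.05, against 7.58% of genes. The median difference of the 8 genes on the log2(FPKM + 1) scale was -0.97, against 0.07 over all tested genes.

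Ccl19, a T zone ligand of CCR7, stood at 63.5 and 27.0 FPKM without GdX and at 129 and 106 FPKM in wild-type spleen. Both GdX-deficient libraries were below both wild-type ones. The log2 difference was -1.48 (SE 0.39, limma adjusted p = 0.52), or 2.78-fold lower on that scale. Ccl21a, the other T zone ligand of CCR7, stood at 117 and 36.6 FPKM without GdX and at 271 and 177 FPKM in wild-type spleen. These groups did not overlap either, with a log2 difference of -1.72 (SE 0.49, limma adjusted p = 0.551). The copy Ccl21c was listed at 0 and 1.17 FPKM without GdX and at 4.86 and 6.02 FPKM in wild type, a log2 difference of -2.12 (SE 0.37, limma adjusted p = 0.332). With a pseudocount of 0.1 in place of 1 that difference was -3.95 (limma adjusted p = 0.658). Ccl21c is low, and its own fragments could not be estimated. Gm21541 has the same value as Ccl21c in the 4 libraries where it is above 0, and its values there correspond to an estimated 14 to 83 fragments.

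Cxcl12, the stromal ligand of CXCR4, had groups with little spread. It stood at 54.6 and 51.7 FPKM without GdX and at 119.8 and 111 FPKM in wild-type spleen, a log2 difference of -1.10 (SE 0.24, limma adjusted p = 0.52). The wild-type mean of 115 ± 6.16 FPKM did not overlap with the GdX-deficient mean of 53.2 ± 2.07 FPKM (SD, n = 2 each). Cxcl13, the ligand of CXCR5, stood at 77.4 and 49.7 FPKM without GdX and at 109.8 and 91.0 FPKM in wild type. The groups did not overlap, with a log2 difference of -0.68 (SE 0.30, limma adjusted p = 0.621).

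Among the receptors, Ccr7 stood at 125 and 55.7 FPKM without GdX and at 139 and 160.1 FPKM in wild-type spleen, a log2 difference of -0.83 (SE 0.38, limma adjusted p = 0.621) without overlap. Cxcr5, the follicular homing receptor of B cells, spread from 119 to 357 FPKM within the GdX-deficient group and overlapped with the wild-type values of 261 and 355 FPKM (log2 difference -0.56, SE 0.49, limma adjusted p = 0.678). Cxcr4 stood at 18.8 and 126 FPKM without GdX and at 20.8 and 16.1 FPKM in wild type. Its groups overlapped, with replicate 2 of the GdX-deficient group alone high, and the log2 difference was 1.37 (SE 0.67, limma adjusted p = 0.621).

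Replicate 2 of the GdX-deficient group weighed on most of these values. Without it, the log2 differences were -0.87 for Ccl19, -0.89 for Ccl21a, -2.68 for Ccl21c, -1.06 for Cxcl12, -0.36 for Cxcl13, -0.25 for Ccr7, 0.23 for Cxcr5 and 0.03 for Cxcr4. The difference of Cxcl12 was thus the least moved among these, and Cxcr5 changed direction. With replicate 1 left out instead, they were -2.08 for Ccl19, -2.55 for Ccl21a, -1.56 for Ccl21c, -1.14 for Cxcl12, -0.99 for Cxcl13, -1.40 for Ccr7, -1.34 for Cxcr5 and 2.71 for Cxcr4 (the lowest limma adjusted p of these, 0.0526). Limma fitted on only the 4 libraries compared called Ccl19 (adjusted p = 0.0145), Ccl21a (0.0119), Ccl21c (0.000691) and Cxcl12 (0.0294), with 181 genes called in all. Leaving out a wild-type 6 h library did not change the differences at 90 min. Without the first wild-type 90 min library they were -1.34 for Ccl19, -1.41 for Ccl21a, -2.25 for Ccl21c and -1.05 for Cxcl12. Without the second they were -1.61, -2.03, -1.99 and -1.16.

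**Figure D2:**
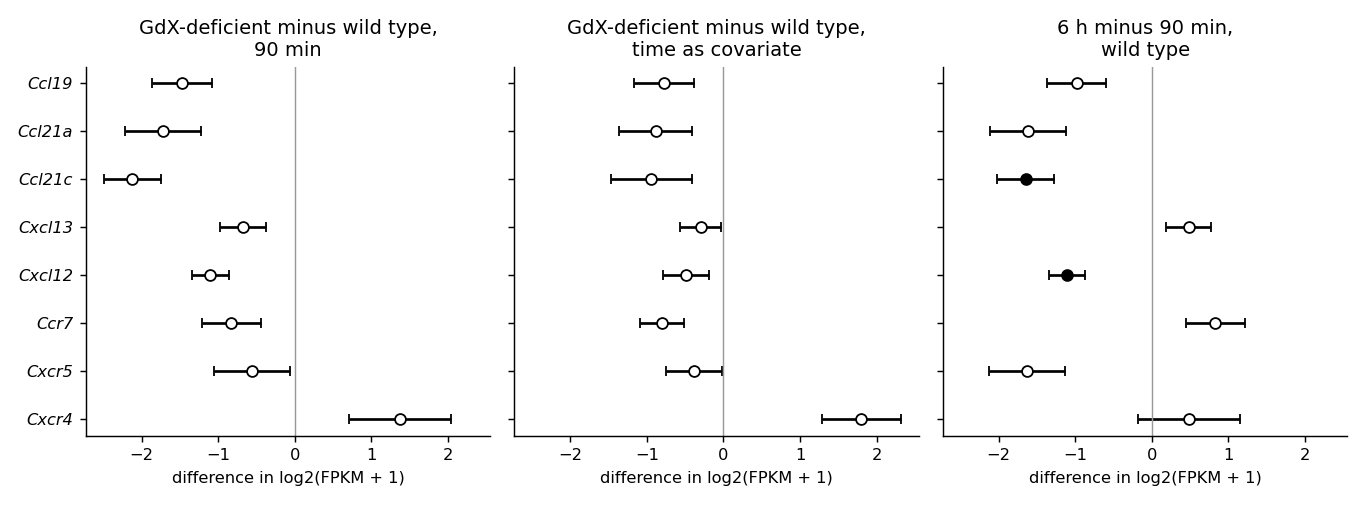
Differences in log2(FPKM + 1) of the 8 genes in the 3 tested comparisons, with bars of 1 standard error from limma, where filled points have an adjusted p under 0.05. In the genotype comparisons no point is filled. In the wild-type time comparison Ccl21c (-1.65) and Cxcl12 (-1.11) are.

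Other genes of the white pulp were read beside the ligands. White pulp stroma genes were lower without GdX at 90 min for 14 of 16, with a median log2 difference of -0.48, and 0 passed the threshold. The summed stroma markers stood at 1138 and 779.8 FPKM without GdX and at 1333 and 1551 FPKM in wild-type libraries, so they were lower in the libraries with lower ligands. Their part in the result was not tested. Of 16 genes of the lymphotoxin and non-canonical NF-kB pathway, which sustains ligand expression in follicles, 9 were lower and 7 higher with a median of -0.06, and 0 passed. Of 9 dendritic cell markers 7 were lower (median -0.39), whereas of 12 T cell markers 8 were higher (median 0.05) and of 12 B cell markers 7 were higher (median 0.19). Neutrophil markers were higher for 11 of 12 (median 1.19), but their sums overlapped, at 1136 and 4950 FPKM without GdX and at 1293 and 827 FPKM in wild type, with replicate 2 alone high. Red cell markers were higher for 10 of 10 (median 0.97), and their sums did not overlap, at 1337 and 1117 FPKM without GdX and at 596 and 668 FPKM in wild type. The part of red cell content in the ligand differences was not tested. No gene of these lists passed the threshold in this comparison.

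Entries like Ccl19 were examined for the same reason as the Ccl21 copies. The table lists 7 predicted entries that it describes as CCL19-like, among them Gm2457 and Gm2564, whose values are identical in every library. Summed with Ccl19, these 8 entries gave 194 and 66.8 FPKM without GdX and 381 and 299 FPKM in wild-type spleen at 90 min. The groups stayed apart, with a log2 difference of -1.56 (SE 0.46, limma adjusted p = 0.559). The 4 listed Ccl21 copies summed to 119 and 38.9 FPKM without GdX and to 280.4 and 183 FPKM in wild-type spleen. That log2 difference was -1.72 (SE 0.48, limma adjusted p = 0.529), like that of Ccl21a alone, and the other 3 copies stood at 0 to 6.02 FPKM in these libraries. Ccl21b was listed at 0 in every library but replicate 1 of the GdX-deficient 90 min group (1.74 FPKM).

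**Figure D3:**
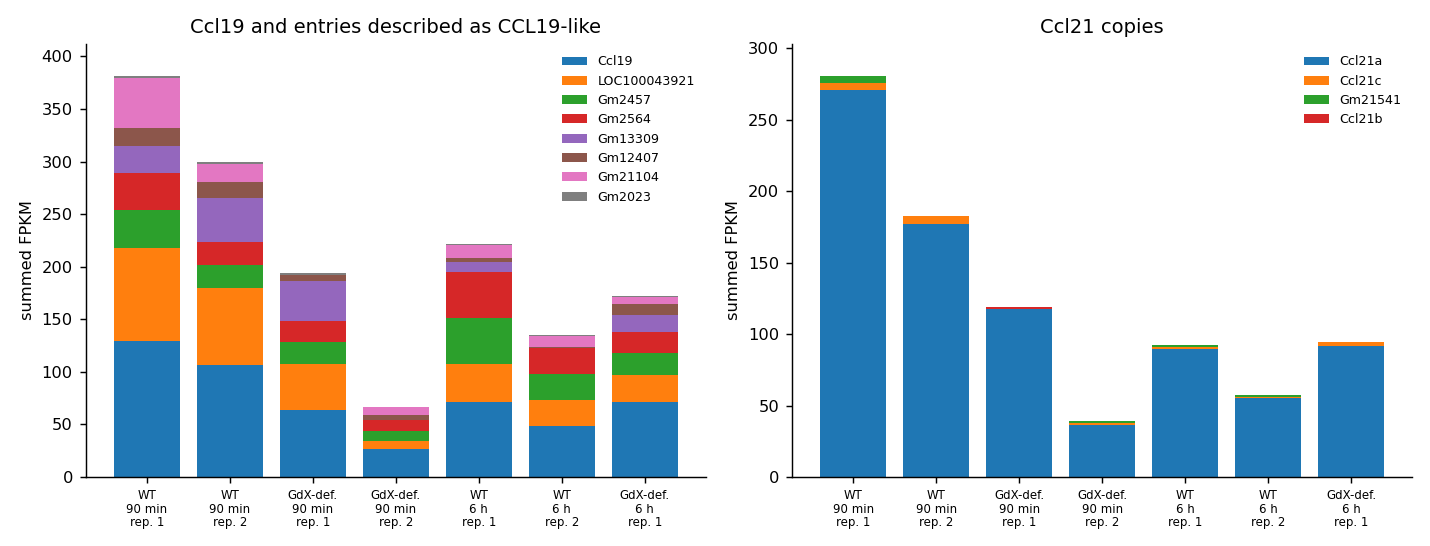
Summed FPKM per library of Ccl19 with the predicted CCL19-like entries (left) and of the Ccl21 copies (right), where each colour is 1 entry of the table and each bar 1 library. The wild-type 90 min bars are the tallest in both panels, and nearly all of each Ccl21 bar is Ccl21a.

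Both times were then used in a fit of genotype with time as covariate, 3 GdX-deficient against 4 wild-type libraries. Again 7 of the 8 genes were lower in GdX-deficient spleen (37.8% of tested genes were) and Cxcr4 was higher. None of the 8 passed the threshold, against 0.0439% of tested genes (5 genes), and 2 of the 8, Ccr7 and Cxcr4, had an unadjusted p under 0.05, against 27% of genes. The median of the 8 differences was -0.63, against 0.16 over all genes. Ccr7 was 1.75-fold lower (log2 difference -0.80, SE 0.29, limma adjusted p = 0.125), and at each time the GdX-deficient libraries lay below both wild-type ones. Cxcr4 was 3.49-fold higher (log2 difference 1.80, SE 0.51, limma adjusted p = 0.105). Without replicate 1 of the GdX-deficient libraries at 90 min, both Ccr7 (-1.09, limma adjusted p = 0.0353) and Cxcr4 (2.58, 0.00313) were called, with 1674 genes called in all. Without replicate 2 they stood at -0.51 (limma adjusted p = 0.398) and 1.24 (0.35), and leaving out any other library called no member. For the ligands the log2 differences were smaller than at 90 min, with -0.77 for Ccl19, -0.88 for Ccl21a, -0.94 for Ccl21c, -0.49 for Cxcl12 and -0.30 for Cxcl13. These values rested on single libraries. Without GdX-deficient replicate 2 at 90 min they were -0.30 for Ccl19, -0.26 for Ccl21a, -0.92 for Ccl21c, -0.32 for Cxcl12 and -0.04 for Cxcl13, and without the 6 h GdX-deficient library they were those of the 90 min comparison. Ccl21c stood at -0.36 without GdX-deficient replicate 1 at 90 min and at -0.58 without the second wild-type 90 min library.

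Time was compared in wild-type spleen, 6 h against 90 min. Cxcl12 and Ccl21c fell, and for every one of the 8 genes the libraries of the times did not overlap, with 5 genes lower at 6 h (27.6% of tested genes were so) and 3 higher (30.3% of tested genes). Of the 8 genes 2 passed the threshold in limma, both lower, where 10.7% of tested genes passed and 6.32% passed as lower. The median difference of the 8 was -1.05, against 0.05 over all genes. This comparison shares the wild-type 90 min libraries with the genotype comparison at 90 min, and those libraries were above all GdX-deficient 90 min and all wild-type 6 h libraries for Ccl19, Ccl21a, Ccl21c and Cxcl12, a pattern held by 7.58% of tested genes.

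Cxcl12 went from 119.8 and 111 FPKM at 90 min to 48.4 and 57.7 FPKM at 6 h in wild type. On the log2 scale Cxcl12 fell by 1.11 (SE 0.24, limma adjusted p = 0.0207). With either wild-type 90 min library left out, the difference was about as large (-1.06 and -1.17), but the call was lost (limma adjusted p = 0.167 and 0.104). Ccl21c went from 4.86 and 6.02 to 1.32 and 0.8 FPKM and fell by 1.65 (SE 0.37, limma adjusted p = 0.0236), a call lost with a pseudocount of 0.1 (-2.29, adjusted p = 0.156) or without a filter on low values (-1.65, 0.0945). Ccl21c is low in every library and has no fragment estimate of its own. The sum of the Ccl21 copies had a log2 difference of -1.63 (limma adjusted p = 0.0614), and it passed with only the 4 libraries compared (0.038) and in 5 of the 7 fits that left out a library (0.0023 to 0.039). The count of members called was 4 without the first or the second GdX-deficient 90 min library (1086 and 1089 genes called in all) or the second wild-type 6 h library (1774 genes), and 5 without the first wild-type 6 h library (1517 genes), against 1218 of 11378 genes with every library. The genes gained were Ccl21a and Cxcr5 in the fits with 4, and Ccl21a, Ccl19 and Ccr7 in the fit with 5.

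Ccl21a stood at 271 and 177 FPKM at 90 min and at 89.8 and 55.5 FPKM at 6 h in wild type (log2 difference -1.62, limma adjusted p = 0.0672). Ccl19 stood at 129 and 106 FPKM and then at 71.6 and 48.1 FPKM (log2 difference -0.98, limma adjusted p = 0.135). Both CCR7 ligands were lower in each 6 h library than in each 90 min library, without passing the threshold in the main fit. The sum of the Ccl19 entries had a log2 difference of -0.96 (limma adjusted p = 0.201). Its entries differed, with Gm12407 called lower (-2.64, limma adjusted p = 0.00646) and Gm2457 and Gm2564 at 0.22. With the replicate number as a block, Ccl19 (limma adjusted p = 0.0397) and Ccl21a (0.0103) passed the threshold, with 2345 genes called in all. Ccl21a passed it in 8 of 15 alternatives, among them only the 4 libraries compared (limma adjusted p = 0.0383). Cxcl13 stood on the other side, at 109.8 and 91.0 FPKM at 90 min and at 119.6 and 163 FPKM at 6 h (log2 difference 0.48, limma adjusted p = 0.32). Over 16 alternatives the difference of Cxcl13 ranged from 0.26 to 0.70. The ratio of Cxcl13 to the single Ccl19 entry was 0.851 and 0.857 in wild type at 90 min and 1.67 and 3.39 at 6 h, and in GdX-deficient spleen 1.22 and 1.84 at 90 min and 2.38 at 6 h. Which of the pair is higher depends on the copies. Against the sum of the 8 Ccl19 entries, Cxcl13 was the lower in all libraries but the second wild-type one at 6 h (163 against 135 FPKM).

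The receptors parted ways with time in wild type. Cxcr5 stood at 261 and 355 FPKM at 90 min and at 69.7 and 137 FPKM at 6 h (log2 difference -1.63, limma adjusted p = 0.0658). Ccr7 stood at 139 and 160.1 FPKM and then at 213 and 331 FPKM (log2 difference 0.83, limma adjusted p = 0.191). Cxcr4 stood at 20.8 and 16.1 FPKM and then at 26.7 and 25.4 FPKM (log2 difference 0.49, limma adjusted p = 0.682, and 0.31 to 0.66 over 16 alternatives). Ccr7 and Cxcr4 were higher and Cxcr5 lower in both 6 h libraries, and none of the 3 passed the threshold. Cxcr5 passed it in 6 of 16 alternatives, among them only the 4 libraries compared (limma adjusted p = 0.0464) and the fit with the second wild-type 6 h library left out (-2.11, 0.000699). Ccr7 passed in 1, with the first of these libraries left out (1.15, limma adjusted p = 0.0377), and stood at 0.51 with the second left out.

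Lists of genes that act with these chemokines were read in the same comparison. Over all tested genes 6.32% fell, against which the count of each list is read. Of 16 lymphotoxin and non-canonical NF-kB genes, 2 fell and 0 rose. Ltb, the membrane-anchoring lymphotoxin subunit, went from 474 and 358 FPKM to 121 and 71.2 FPKM (log2 difference -2.14, limma adjusted p = 0.00637). Lta, its partner, went from 36.7 and 40.0 to 7.89 and 8.98 FPKM (-2.06, limma adjusted p = 0.00779). The median of that list was -0.19, and its other genes did not pass the threshold.

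Of 18 genes of lymphocyte positioning and exit, 4 fell and 0 rose, with a median of -0.41. Gpr183, the oxysterol receptor that guides B cells and dendritic cells, fell by 2.10 (limma adjusted p = 0.0316), and Ch25h, the enzyme that starts the synthesis of its ligand, fell by 1.71 (0.0121). Cd69, which holds back lymphocyte exit, fell by 2.37 (0.0196), and the integrin gene Itgb7 by 2.85 (0.00129). Of 15 genes of atypical receptors and chemokine signal control, 4 fell and 0 rose. They were Rgs16 (-2.40, limma adjusted p = 0.00454) and Rgs2 (-1.29, 0.0227), which shorten G protein signals, the chemerin-binding receptor Ccrl2 (-1.36, 0.0381) and the scavenging receptor Ackr1 (-1.11, 0.0387).

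White pulp stroma genes fell for 7 of 16 and rose for 0 in wild type, with a median of -0.92. Vcam1, an adhesion molecule of stroma and macrophages, fell by 2.59 (limma adjusted p = 0.00129), and Des, a pericyte gene, by 1.67 (0.00841). Fcer2a fell by 2.80 (0.00131) and Thy1 by 2.32 (0.00231), and B cells and T cells, respectively, also express these 2 genes. The summed stroma markers stood at 1333 and 1551 FPKM at 90 min and at 619.6 and 711 FPKM at 6 h. The summed B cell markers stood at 1953 and 1823 and then at 775 and 815 FPKM (4 of 12 fell, and Cd79a fell by 3.04), and the summed T cell markers at 508 and 478 and then at 233 and 255 FPKM (4 of 12 fell). Red cell markers fell for 9 of 10 and neutrophil markers for 0 of 12. The fat tissue markers, of which 5 of 8 stayed under 1 FPKM everywhere, summed to 53.7 and 45.1 FPKM in wild type at 90 min, to 22.6 and 10.96 FPKM at 6 h and to 21.3 and 20.1 FPKM in GdX-deficient spleen at 90 min, with Fabp4 as most of the sum. The 6 h GdX-deficient library had a sum of 7.32 FPKM. Red pulp macrophage markers fell for 4 of 10 (median -0.87), with sums of 1169 and 1209 and then 855 and 706 FPKM. The stroma, B cell, T cell, red cell, red pulp macrophage and fat tissue sums were higher in both wild-type 90 min libraries than in both 6 h ones, and their part in the ligand differences was not tested.

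**Figure D4:**
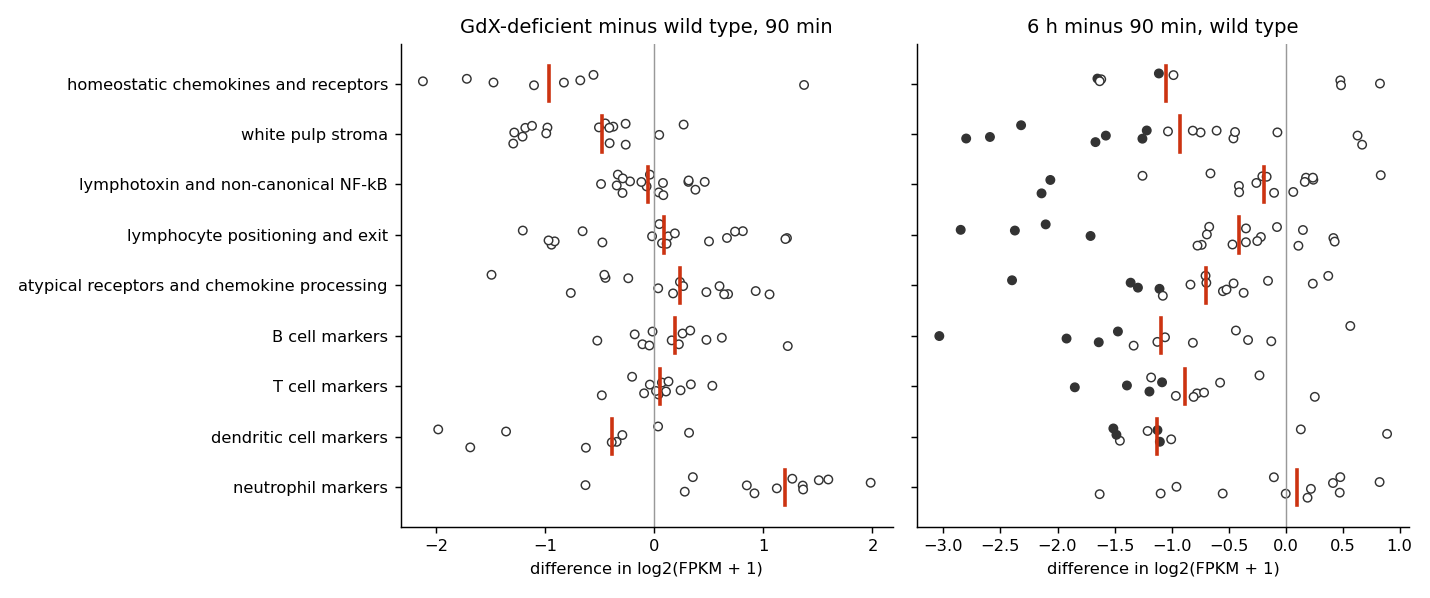
Differences in log2(FPKM + 1) of the genes of each list for genotype at 90 min (left) and for 6 h against 90 min in wild type (right), where each point is 1 tested gene, filled where the limma adjusted p is under 0.05, and each red bar is the list's median. The 8 chemokine and receptor genes have medians of -0.97 and -1.05, and the neutrophil markers are the list with the highest median on the left, at 1.19.

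At 6 h the genotypes can only be described, since there was 1 GdX-deficient library. A gene was counted if this library was at least 2-fold above or below the wild-type mean and beyond both wild-type libraries. By this rule 1 of the 8 was counted, Cxcr4, where 22% of tested genes were (16.5% as higher and 5.47% as lower). Cxcr4 had 146 FPKM in the GdX-deficient library and 26.7 and 25.4 FPKM in wild type, 5.44-fold higher. Ccr7 stood at 155 FPKM, below the 213 and 331 FPKM of wild type. The ligands were not low in this library. Ccl21a at 91.6 FPKM, Ccl21c at 2.65 FPKM, Cxcl12 at 71.8 FPKM and Cxcl13 at 169.9 FPKM each lay above both wild-type libraries, by log2 differences of 0.37, 0.84, 0.43 and 0.28, where the median over all genes was 0.32. The copy Gm21541 had the values of Ccl21c in the wild-type libraries (1.32 and 0.8 FPKM) but 0 in the GdX-deficient one. The part of the split of fragments between these copies was not tested. Ccl21a was close to the first wild-type library (89.8 FPKM), with a difference of 0.03 from that library alone and of 0.71 from the second alone. For Cxcl13 these differences were 0.50 and 0.06. With Cxcr4, 5 of the 8 lay above both (54.9% of tested genes did) and Ccr7 alone below both (25.3% did). Ccl19 (71.5 FPKM) and Cxcr5 (89.8 FPKM) lay between the wild-type values. Against the second wild-type 6 h library alone 3 of the 8 and 1887 genes in all were counted, and against the first alone 1 of the 8 and 3830 genes, where the pair gave 2501.

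Within GdX-deficient spleen, the 6 h library was set against the pair at 90 min in the same way. Of the 8 genes 4 were counted, where 5.73% of tested genes were, 3 as higher (4.09% of genes) and 1 as lower (1.64% of genes). Cxcl13 was higher at 6 h (169.9 FPKM against 77.4 and 49.7 FPKM), as were Cxcr4 (146 against 18.8 and 126 FPKM) and Ccl21c (2.65 against 0 and 1.17 FPKM). Cxcr5 was lower (89.8 against 357 and 119 FPKM). Cxcl12 and Ccr7 lay above both 90 min libraries by less than 2-fold, with log2 differences of 0.43 and 0.89, and so did Ccl19 (0.77), while Ccl21a at 91.6 FPKM lay between them (0.47). Which genes were counted depended on the 90 min library. Against replicate 2 alone, Cxcr4 (0.22), Cxcr5 (-0.41) and Ccl21c (0.75) were under 2-fold, and Ccl19 (1.37), Ccl21a (1.30) and Ccr7 (1.46) were counted with Cxcl13, where 585 genes were counted in all. Against replicate 1 alone, the 4 genes were those counted against the pair, with 1336 genes in all, and Ccl21a lay on the other side (-0.35). In all, 6 of the 8 lay above both 90 min libraries (56.8% of tested genes did) and Cxcr5 below both (15.8% did).

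For Ccl19, Ccl21c and Cxcl12 the 6 h libraries were thus lower than those at 90 min in wild type and higher in GdX-deficient spleen, a pattern that 8.31% of tested genes had. The sums of the Ccl19 entries and of the Ccl21 copies did not have it. In GdX-deficient spleen the Ccl19 sum was 172.5 FPKM at 6 h, between 194 and 66.8 FPKM at 90 min. The Ccl21 sum was 94.2 FPKM, between 119 and 38.9 FPKM. Ccl21a, Ccl21c, Cxcl12 and Cxcl13 were below both wild-type libraries at 90 min in GdX-deficient spleen and above both at 6 h, as were 6.82% of tested genes. For Ccl21c this takes the entry apart from its copy Gm21541, which stood at 0 in the 6 h GdX-deficient library. The difference between the genotype differences was tested as an interaction, chosen after the data were seen, in which the lone 6 h library was assumed to vary like the groups of 2. The interaction was above 0 for 8 of the 8 genes (64.2% of tested genes), with a median of 1.30 against 0.19 over all genes. Other lists lay on the same side, with stroma genes above 0 for 16 of 16 (median 1.57), B cell markers for 12 of 12 (1.46), dendritic cell markers for 9 of 9 (1.26), T cell markers for 12 of 12 (0.97) and red cell markers for 10 of 10 (0.95). The part of these cell types in the members' values was not tested. None of the 8 passed the threshold, against 0.0703% of tested genes (8 genes). Of the pathway lists only Des, at 31.0 FPKM in the GdX-deficient 6 h library and at 6.85 and 6.19 FPKM in wild type, passed it (interaction 3.39, limma adjusted p = 0.043). That call was lost, as no gene was called, with a pseudocount of 0.1, with a mean of at least 5 FPKM, after rescaling without globin genes, or without either GdX-deficient 90 min library.

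The receptors were set against marker sums of cells that carry them, as ratios of FPKM with no test. Cxcr4 and the neutrophil markers were both high in the same libraries. The neutrophil sum was 2702 FPKM in the 6 h GdX-deficient library and 4950 FPKM in replicate 2 at 90 min, where Cxcr4 was 146 and 126 FPKM, and 822 to 1293 FPKM in the other 5 libraries, where Cxcr4 was 16.1 to 26.7 FPKM. Per 100 FPKM of neutrophil markers, Cxcr4 was 1.61 to 3.09 FPKM in those 5 libraries, 2.54 FPKM in replicate 2 at 90 min and 5.4 FPKM in the 6 h GdX-deficient library. The part of neutrophil content in the Cxcr4 level was not tested.

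Cxcr5 per 100 FPKM of B cell markers was 13.4 and 19.5 FPKM in wild type at 90 min, 9 and 16.8 FPKM in wild type at 6 h, 22.8 and 4.54 FPKM in GdX-deficient spleen at 90 min and 3.85 FPKM at 6 h. The wild-type times lay closer together on this ratio than in Cxcr5 itself and overlapped. The 2 lowest ratios belonged to GdX-deficient libraries whose B cell markers, at 2633 and 2331 FPKM, were the 2 highest sums. Cxcr5 itself stood at 119 and 89.8 FPKM there. The part of B cell content in the Cxcr5 level was not tested.

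Ccr7 per 100 FPKM of T cell markers was 91.3 and 130 FPKM in wild type at 6 h and 10.3 to 33.5 FPKM in the other 5 libraries. The GdX-deficient 6 h library, at 33.3 FPKM, lay between the wild-type values at 90 min (27.3 and 33.5 FPKM), and the 2 GdX-deficient libraries at 90 min differed (29.7 and 10.3 FPKM). The part of T cell and dendritic cell content in the Ccr7 level was not tested. Against the dendritic cell markers, a ratio chosen after the values were seen, Ccr7 stayed between 48 and 85.4 FPKM per 100 FPKM in all 7 libraries. Fscn1, an actin-bundling protein of mature dendritic cells, made up most of that sum in 6 libraries, with 318 and 342 FPKM in wild type at 6 h, 145 and 218 FPKM at 90 min, 167 and 27.8 FPKM in GdX-deficient spleen at 90 min and 232 FPKM at 6 h. Of 9 tested dendritic cell markers 4 fell with time in wild type, among them Itgax by 1.51 (limma adjusted p = 0.0166), whereas Fscn1 had a log2 difference of 0.89 and did not pass.

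**Figure D5:**
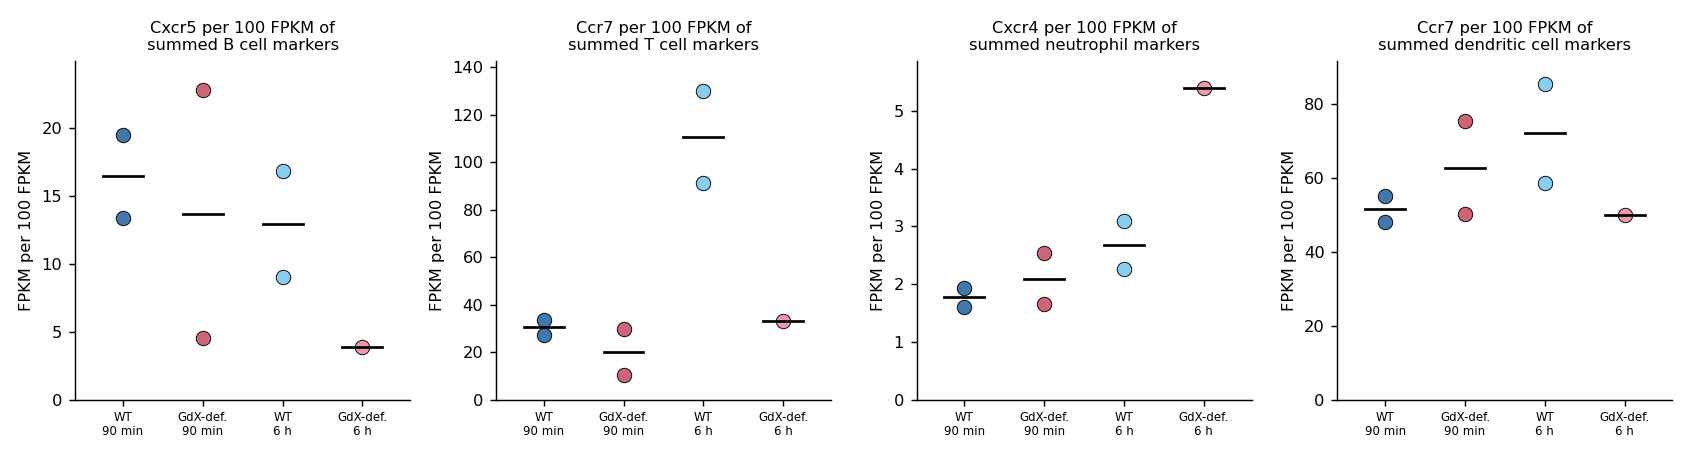
Receptor RNA per 100 FPKM of a summed marker list (linear axes from 0) by genotype and time, where each point is 1 library and each bar the mean of the group. Ccr7 against T cell markers is highest in wild type at 6 h (91.3 and 130), while against dendritic cell markers it lies between 48 and 85.4 everywhere.

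The genes whose levels ran most closely with each member were listed by Pearson's r over the 7 libraries, as a description in which libraries share depth, cell content and group. Ccl19 and Ccl21a ran together (r = 0.963), and the closest named gene to Ccl19 was Mfge8 (0.965), a gene of follicular dendritic cells and other stroma. Ccl21a ran closest with Gdf15 (0.978), a stress-induced cytokine, and with the growth factor gene Pdgfa (0.963). Cxcl12 ran with Coch (0.976), a gene of follicular stroma, with Hspb1 (0.970) and with the endothelial gene Nostrin (0.969). Cxcl13 ran with other genes, Cp (ceruloplasmin, 0.993), the complement gene C1ra (0.978) and Ctu1 (0.976).

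Of the receptors, Cxcr4 ran closest with Cxcr2 (0.993), the neutrophil receptor, which stood at 40.1 FPKM in the 6 h GdX-deficient library and 27.5 FPKM in replicate 2 at 90 min against 5.41 to 9.1 FPKM in the other 5, followed by Sike1 (0.990) and H2-Q10 (0.987). Cxcr5 ran with Il33 (0.990), Ptger4 (0.989) and Insig1 (0.983), none of them on the B cell list. Ccr7 ran with Eif4a1 (0.977), a translation initiation factor, and with Gja4 (0.975) and Med27 (0.972). Ccl21c, at low values, ran with Tm2d2 (0.965), Pitpna (0.944) and Ppic (0.931).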

How the data were processed

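RNA-seq of 7 mouse spleens was used. Per the file headers, the authors deposited 1 column of FPKM per library, given to 2 decimals. The submitters' processing notes name HISAT, HISAT2 2.0.4, Bowtie2, RSEM and the build GRCm38.p5, without their roles. All value columns matched a sample title, which gave group and replicate number. The 8 members and all gene lists were chosen with earlier results of these data known.

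FPKM values were converted to log2(FPKM + 1), which understates the change of low genes. The 11378 genes with a mean of at least 1 FPKM entered limma 3.58.1 (R 4.3.3), with linear models and empirical Bayes moderation that lets the variance follow mean expression. Two-sided p-values were Benjamini-Hochberg adjusted over all genes tested, with a threshold of 0.05, and standard errors are moderated. Genotype at 90 min and time in wild type came from 1 fit of the 4 groups, whose spread comes from the 3 groups of 2 libraries. Genotype with time as covariate was an additive fit. The 6 h GdX-deficient group has 1 library, so comparisons of it with 1 other group were described, not tested. The additive fit and the interaction also use that library and were tested. The interaction and the summed Ccl19 entries were added after the data were seen. A check on simulated data used independent noise for each gene, without deviations shared by a library, so it cannot vouch for the calls in these data.

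Named genes were the 8 members and listed Ccl21 copies, up to 4 genes per list and direction past the threshold, and the 3 genes most correlated with each member (mean of at least 5 FPKM, no predicted genes or receptor segments). Genes named beyond this rule (Ubl4a, Gm44504, the CCL19-like entries, single markers such as Fscn1 and Pdpn) were chosen after their values were seen. Depth was estimated from the steps between low FPKM values of genes with 1 transcript of 500 to 1600 bases. Those estimates give no exact counts, so no counting intervals are given. Alternatives were a pseudocount of 0.1, no filter or a mean of at least 5 FPKM, quantile normalization, rescaling without globin genes, removal of a transcript length trend, a replicate block, only the compared libraries, summed Ccl21 copies, and leaving out each library. Coordinates and promoters are RefSeq's on GRCm38.p6.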

Additional observations from a re-analysis of the deposited data

Results flagged for a closer look

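Differences of 5 ligands turned around between times or genotypes. Ccl21a, Ccl21c, Cxcl12 and Cxcl13 lay below both wild-type libraries in GdX-deficient spleen at 90 min and above both at 6 h, as did 6.82% of tested genes, and Ccl19, Ccl21c and Cxcl12 were lower at 6 h than at 90 min in wild type and higher in GdX-deficient spleen, without overlap, as were 8.31%. The sums of the Ccl19 entries and of the Ccl21 copies did overlap between the times in GdX-deficient spleen. At 6 h the margins over the nearer wild-type library were small for Ccl21a (91.6 against 89.8 FPKM) and Cxcl13 (169.9 against 163 FPKM). Ccl21c stood at 2.65 FPKM there with its copy Gm21541 at 0, whereas in wild type both entries stood at 1.32 and 0.8 FPKM. The genotype difference at 6 h minus that at 90 min on the log2(FPKM + 1) scale was 2.96 for Ccl21c (SE 0.58, limma adjusted p = 0.11), 2.09 for Ccl21a (SE 0.78, adjusted p = 0.387), 1.76 for Ccl19 (SE 0.62, adjusted p = 0.352), 1.54 for Cxcl12 (SE 0.38, adjusted p = 0.171) and 0.96 for Cxcl13 (SE 0.47, adjusted p = 0.561). None passed the threshold. With 1 wild-type library left out, the values ranged from 2.78 to 3.14 for Ccl21c, from 1.75 to 2.43 for Ccl21a and from 1.47 to 2.04 for Ccl19. They ranged from 1.41 to 1.66 for Cxcl12 and from 0.74 to 1.18 for Cxcl13. With GdX-deficient replicate 2 at 90 min left out, the values were 1.26 for Ccl21a, 1.15 for Ccl19 and 0.65 for Cxcl13. The median over the 16 white pulp stroma genes was 1.57 and over the 12 B cell markers 1.46, so these lists held values of the same size. The 6 h side of each value is a single GdX-deficient library, assumed to vary like the groups of 2. The same interaction was 1.07 for Cxcr4, 0.44 for Cxcr5 and 0.06 for Ccr7, so the 5 ligands had larger values than Cxcr5 and Ccr7. The summed Ccl21 copies gave 2.09 (SE 0.76, limma adjusted p = 0.376) and the summed Ccl19 entries 1.56 (SE 0.73, limma adjusted p = 0.534).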

How the results depend on the processing

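No member changed direction in the 3 tested comparisons under quantile normalization or rescaling without globin genes, although rescaling moved the median of all genes at 90 min from 0.07 to 0.25. With 1 library left out, directions reversed for Cxcr5 at 90 min (-1.34 to 0.23) and with time as covariate (-0.73 to 0.053), and in the interaction for Cxcr4 (-0.27 to 2.41), Ccr7 (-0.51 to 0.64) and Cxcr5 (-0.35 to 1.22), in each case without 1 of the GdX-deficient 90 min libraries and for Ccr7 and Cxcr5 also without the first wild-type 6 h library (-0.26 and -0.044) or, for Ccr7, the second wild-type 90 min library (-0.041). With a pseudocount of 0.1, Ccl21c stood at -1.86 with time as covariate and at 5.23 in the interaction. After removal of a length trend, Cxcl13 with time as covariate stood at 0.025, Ccl19 at -0.34, Ccl21a at -0.49 and Cxcl12 at -0.60. At 90 min that removal gave -1.09 for Ccl19, -1.37 for Ccl21a, -0.40 for Cxcl13 and -1.20 for Cxcl12. The cause was not tested.

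Members called at 90 min numbered 4 with only the 4 libraries compared, and 0 to 4 with 1 library left out. For time in wild type they numbered 1 with a pseudocount of 0.1, without a filter, with a mean of at least 5 FPKM (where Ccl21c is not tested) or with Ccl21 copies summed, 4 with only the 4 libraries, and 2 to 5 leaving out a library. With time as covariate, leaving out a library gave 0 to 2, and in the interaction 0 to 2. At 6 h 2 were counted with a pseudocount of 0.1 or rescaled without globin genes, and 1 to 3 leaving out a library. The summed Ccl21 copies passed with only the 4 libraries at 90 min (-1.72, limma adjusted p = 0.0101, leaving out a library -2.51 to -0.92) and for time in wild type (-1.63, adjusted p = 0.038, -1.97 to -1.28), and their interaction was 1.29 to 2.88 with a library left out.

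Over all genes, the calls at 90 min were 2, against 0 after removal of a length trend, 181 with only the 4 libraries and 2 to 183 leaving out a library. With time as covariate they were 5, against 2 after the length trend and 2 to 1674 leaving out a library. For time in wild type they were 1218, against 635 without a filter, 708 rescaled without globin genes, 1953 after the length trend and 450 to 1774 leaving out a library. For the interaction they were 8, against 0 with a pseudocount of 0.1, 3 without a filter, 0 with a mean of at least 5 FPKM, 4 with quantile normalization, 0 rescaled without globin genes, 73 after the length trend and 0 to 238 leaving out a library. In GdX-deficient spleen over time 652 genes were counted, against 1033 with a pseudocount of 0.1 and 585 to 1336 leaving out a library. At 6 h between genotypes 2501 were counted, against 1887 to 3830 leaving out a library.

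Samples that share a replicate number deviated together between the wild-type groups (r = 0.768) but not between genotypes (-0.12 and 0.08). Not every pair of groups was above 0.1, and the labels name nothing shared, so the numbers were not taken as pairing. The time comparison in wild type uses only the groups that deviated together, so its calls depend on this choice. With the replicate number as a block, 4 members were called for time in wild type (2345 genes in all), with Ccl21a (limma adjusted p = 0.0103) and Ccl19 (0.0397) gained, the summed Ccl21 copies passed there (-1.63, limma adjusted p = 0.00919), and at 90 min and with time as covariate 0 members were called, with 2 and 12 genes in all, and 80 genes in the interaction. The length trend was not removed for the summed copies, and alternatives on filters and length were run for tested comparisons only. Groups of 2 and 1 limit every comparison, and values of Ccl21c are low and have no fragment estimate of their own.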

Other observations

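At 6 h the pathway genes around the chemokines were also read in the single GdX-deficient library, with no test. By the rule of at least 2-fold and outside both wild-type libraries, 16.5% of tested genes were counted as higher and 5.47% as lower. Counted as higher were 6 of 16 white pulp stroma genes, 2 of 16 lymphotoxin and non-canonical NF-kB genes, 7 of 18 positioning genes, 8 of 15 genes of atypical receptors and signal control, 7 of 12 T cell markers, 8 of 12 B cell markers, 9 of 12 neutrophil markers, 10 of 10 red cell markers, 2 of 9 dendritic cell markers and 3 of 10 red pulp macrophage markers. Counted as lower were 2 positioning genes and none of the other genes of these lists. Of 2 tested fat tissue markers 1 was counted as higher and 1 as lower, and the Ccl21 copy Gm21541 was counted as lower. Gm21541 stood at 0 and Ccl21c at 2.65 FPKM in the GdX-deficient library, whereas in wild type both entries stood at 1.32 and 0.8 FPKM. Ltb, the membrane-anchoring lymphotoxin subunit, stood at 314 FPKM in this library and at 121 and 71.2 FPKM in wild type. Vcam1 stood at 55.6 FPKM against 24.5 and 33.3 FPKM, and the integrin gene Itgb7 at 58.4 FPKM against 5.92 and 6.63 FPKM. Cd69, the early activation gene that holds back lymphocyte exit, was on the other side, at 50.5 FPKM against 219 and 203 FPKM. The median log2 differences were 0.63 for stroma, 0.52 for the lymphotoxin list, 1.06 for T cell, 1.90 for B cell, 1.58 for neutrophil and 2.09 for red cell markers, against 0.32 over all genes, so several marker lists stood higher in this library together.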
